A study of Mus musculus with 10 samples.

Results

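TREM2 is a receptor of macrophages and microglia that binds lipids and lipoproteins, apolipoprotein E among them, and signals through the adaptor TYROBP (also called DAP12), which recruits the kinase SYK. In the brain this pathway has been tied to the change of microglia around amyloid, and APOE4 is the human allele best known for its link to Alzheimer's disease. The olfactory epithelium, the sensory tissue of the nose, holds resident macrophages that clear dying olfactory neurons. The 10 genes described here are Trem2 and Tyrobp, the receptors Csf1r and Cx3cr1, the macrophage markers Aif1 and Cd68, the complement genes C1qa, C1qb and C1qc, and the secreted protein Spp1. They were taken by symbol from a table of 24421 genes, in which all 10 were present and all 10 had an adjusted p-value, as did 16050 genes in all.

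Poly(A)-selected RNA of whole olfactory epithelium came from untreated C57BL/6 mice at an age of 6 months. Genotype was the only label that differed: 6 libraries were from mice labelled Apoe4 and 4 from mice labelled Apoe3, which the series title calls human Apoe alleles. The sources used here do not give how the alleles were introduced, their promoter or the sex of the mice. The comparison asks which transcripts differ between Apoe4 and Apoe3. The deposited values are 1 mean, 1 fold change and 1 test per gene over all 10 libraries, so no value per library is given below, and whether a single animal carries a difference cannot be seen. Nothing in the labels beyond the word "biological" in the design says how the replicates were raised.

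Markers of the labelled tissue were abundant. Omp, which mature olfactory neurons are named by, had a mean normalized count of 113676, and Cyp2g1, a cytochrome P450 of supporting cells, one of 63586, in the authors' deposited table. Macrophage genes were a minor part of this RNA: the 10 genes together summed to a mean of 7954 normalized counts out of about 17392666, and Spp1 made up most of that. Adgre1, which codes for the macrophage antigen F4/80, had a mean of 162 and Itgam, the integrin CD11b, one of 117 in the authors' deposited table. Lyz2, a lysozyme that neutrophils also make, was far higher at 4618. The 34 other macrophage markers listed, these 3 among them, summed to 12122. The sex-linked genes differed strongly between the genotype groups, with Xist higher and Y-linked genes lower in Apoe4. In the authors' deposited table Xist, which has no adjusted p there, had a log2 fold change of 6.41 (Apoe4 over Apoe3). The Y-linked genes Eif2s3y, Uty, Ddx3y and Kdm5d lay between -3.72 and -2.80. Without values per library, the sex of single animals cannot be seen. The difference between the alleles and this sex-linked difference cannot be told apart for any gene below.

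None of the 10 macrophage and TREM2 pathway genes passed the authors' DESeq2 Wald test of Apoe4 against Apoe3, with an adjusted p below 0.05 as the threshold. Their adjusted p-values ran from 0.439 for Aif1 to 0.982 for Spp1. Over all 16050 genes tested, 125 passed, which is 0.779%, with 0.324% higher and 0.455% lower in Apoe4. At an unadjusted p under 0.05 there was 1 of the 10 genes, Aif1, against 10.3% of all tested genes. The deposited log2 fold changes were negative for 8 of the 10 genes and positive for 2, with a median of -0.05, where the median over all tested genes was 0.0026 and 48.9% of them were negative. Their median absolute log2 fold change was 0.0631, against 0.0675 for all tested genes.

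**Figure D1:**
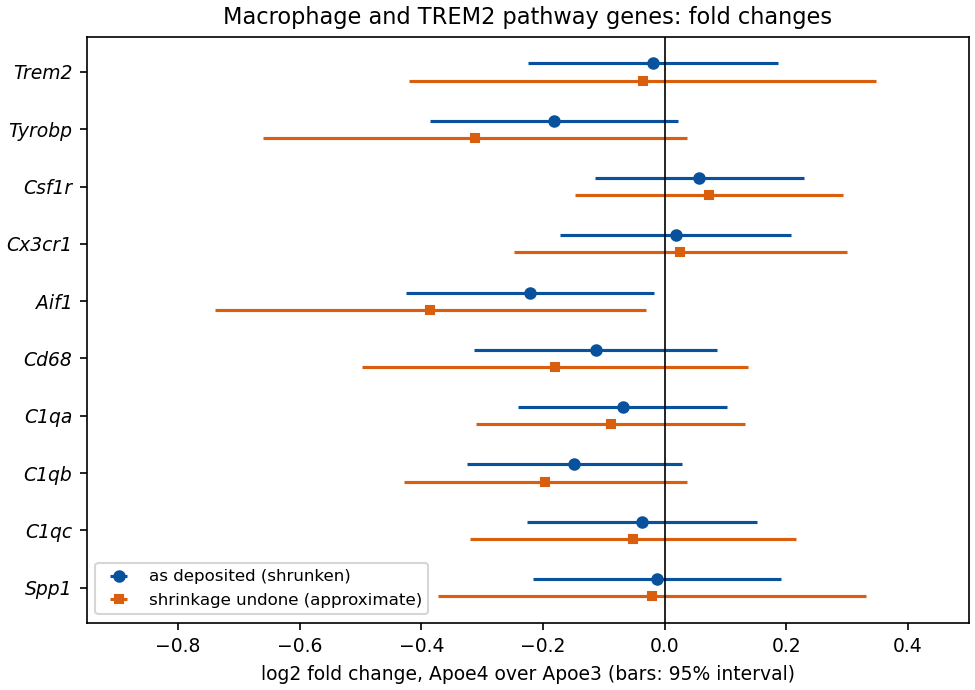
Log2 fold change (Apoe4 over Apoe3) of each gene on the horizontal axis, as deposited by the authors (circles) and with their shrinkage approximately undone (squares), by the solution in which the data weigh more than the prior, bars being 95% intervals from the standard error over 6 Apoe4 and 4 Apoe3 libraries. All intervals but that of Aif1 cross 0, and Aif1 did not pass after adjustment over all genes (adjusted p = 0.439).

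The authors' model shrank every fold change towards 0, and it did so more for genes with few reads or a large spread. Where the error stands near its ceiling of 0.105, the unshrunken fold is about 2 times as large on the log2 scale. The shrinkage was therefore undone approximately, and the intervals that follow are 95% intervals of the fold itself on that scale. An error below the ceiling allows 2 solutions, and the table does not show which one holds for a gene; the solution in which the data weigh more than the prior is given unless stated. The 2 solutions lie close together for Trem2 and furthest apart for C1qa, Csf1r and C1qb, whose errors lie furthest below the ceiling. The Wald statistic and the p-values stay the same under this approximation.

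Neither the receptor nor its adaptor passed the test. Trem2 (chromosome 17, 48346401 to 48352276, GRCm38, protein coding) had a mean of 74.7 normalized counts in the authors' deposited table, where its log2 fold change was -0.019 ± 0.11 (SE, adjusted p = 0.969 by the DESeq2 Wald test). With the shrinkage undone the fold was 0.975, with an interval of 0.748 to 1.27. Any change of Trem2 inside that interval could not be told from none with these libraries. Tyrobp (chromosome 7, 30413782 to 30417582) had a mean of 149 in the authors' deposited table and a log2 fold change of -0.18 ± 0.10 (SE, adjusted p = 0.546). Its unshrunken fold was 0.806, with an interval of 0.633 to 1.03 that just includes 1. By the second solution the fold was 0.738, with an interval of 0.526 to 1.04. The means that the first solution implies were about 136 normalized counts in Apoe4 and 168 in Apoe3. Per kilobase of transcript Tyrobp was 3.63 times as high as Trem2, and TYROBP also serves other receptors of myeloid and natural killer cells. Tyrobp lies 10.7 Mb from Apoe on the same chromosome.

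The growth factor and chemokine receptors had positive values and did not pass the test either. Csf1r (chromosome 18, 61105572 to 61131139) codes for the receptor of CSF1 and IL34, on which macrophages depend for survival. It had a mean of 571 in the authors' deposited table, where its log2 fold change was 0.06 ± 0.09 (SE, adjusted p = 0.870). The unshrunken fold of Csf1r was 1.05, with an interval of 0.903 to 1.23, or of 0.699 to 2.05 by the second solution. Cx3cr1 (chromosome 9, 120048683 to 120068296), the receptor of fractalkine on microglia, tissue macrophages and some monocytes, had a mean of 263 in the authors' deposited table, where its log2 fold change was 0.018 ± 0.10 (SE, adjusted p = 0.969). Its unshrunken fold was 1.02, with an interval of 0.842 to 1.23, or of 0.677 to 1.60 by the second solution. None of the genes Ttc21a, Wdr48, Gorasp1 and Csrnp1 overlaps Cx3cr1 at the RefSeq position given, but all 4 overlap the longer Cx3cr1 locus of GENCODE vM21 (119901616 to 120069879). Likewise Hmgxb3 overlaps the GENCODE locus of Csf1r (61100598 to 61132149) by 873 bases and the RefSeq position by 0. The sources used here give neither the annotation nor the use of strand in the authors' counting, so whether reads in these overlaps were split or dropped was not tested.

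Aif1 and Cd68 are the usual stains for macrophages. Aif1 (chromosome 17, 35170986 to 35176083) codes for the actin-binding protein IBA1. It had a mean of 54.9, the smallest of the 10 genes, in the authors' deposited table, where its log2 fold change was -0.22 ± 0.10 (SE, p = 0.0333, adjusted p = 0.439 by the DESeq2 Wald test). The means implied by the first solution were about 48.9 normalized counts in Apoe4 and 63.9 in Apoe3. The unshrunken fold was 0.766 with an interval of 0.599 to 0.979, or 0.696 with 0.499 to 0.972 by the second solution. Cd68 (chromosome 11, 69664213 to 69666170), a glycoprotein of lysosomes, had a mean of 122 in the authors' deposited table, where its log2 fold change was -0.11 ± 0.10 (SE, adjusted p = 0.742). For Cd68 the interval of the unshrunken fold ran from 0.708 to 1.10, or from 0.557 to 1.18 by the second solution. Neither marker passed the test. In RNA of whole tissue, fewer macrophages and less of a transcript per macrophage cannot be told apart.

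**Figure D2:**
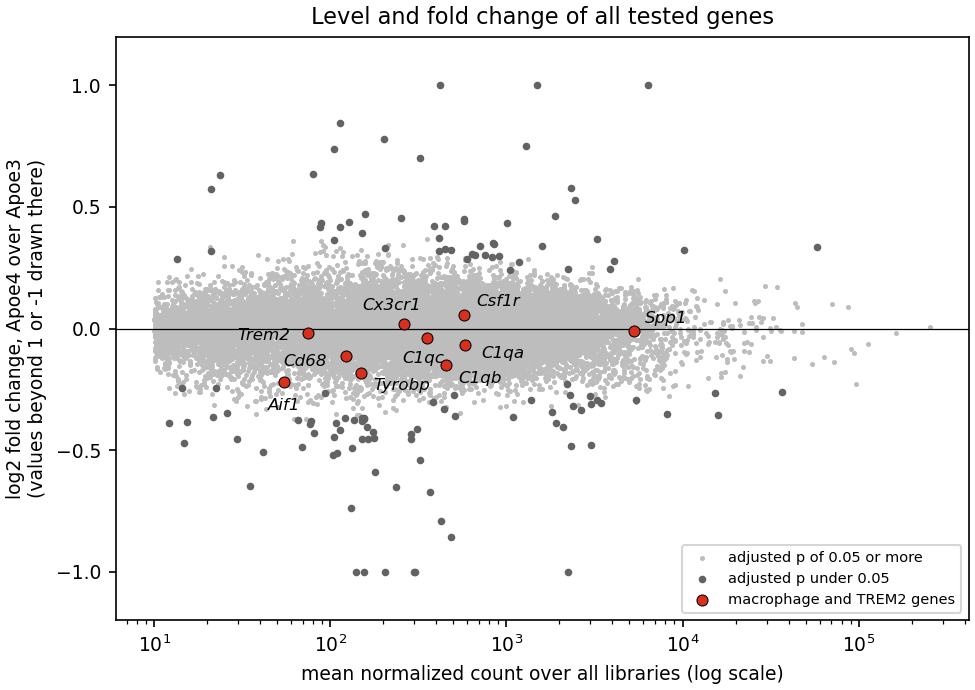
Mean normalized count over all 10 libraries (horizontal axis, log scale) against the deposited log2 fold change of Apoe4 over Apoe3 for 16050 tested genes. The macrophage and TREM2 genes (red) lie inside the cloud of genes that did not pass (light grey) and span means from 54.9 for Aif1 to 5329 for Spp1.

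C1q, the recognition part of the classical complement pathway, is built from chains made by C1qa, C1qb and C1qc, which in many tissues come mostly from macrophages. The genes lie side by side on chromosome 4 within 18.7 kb: C1qb from 136880126 to 136886200, C1qc from 136889801 to 136892936 and C1qa from 136895916 to 136898844. The sequences before an annotated start of transcription of C1qb and C1qc (chr4:136886201-136886450 and chr4:136892915-136893164, minus strand) and of Spp1 (chr5:104434861-104435110, plus strand) are shown because they carry the motif GGAAGT, a form of the site bound by PU.1, the factor that directs macrophage development and is encoded by Spi1. Each is 250 bases, 5′ to 3′ on the gene's strand, from RefSeq's annotation of GRCm38.p6, and capitals mark GGAAGT or, on the other strand, ACTTCC.
C1qb: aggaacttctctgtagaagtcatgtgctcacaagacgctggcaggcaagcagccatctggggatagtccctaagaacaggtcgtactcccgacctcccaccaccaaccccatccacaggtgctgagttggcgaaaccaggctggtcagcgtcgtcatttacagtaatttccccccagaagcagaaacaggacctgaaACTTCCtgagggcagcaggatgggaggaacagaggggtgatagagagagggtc
C1qc: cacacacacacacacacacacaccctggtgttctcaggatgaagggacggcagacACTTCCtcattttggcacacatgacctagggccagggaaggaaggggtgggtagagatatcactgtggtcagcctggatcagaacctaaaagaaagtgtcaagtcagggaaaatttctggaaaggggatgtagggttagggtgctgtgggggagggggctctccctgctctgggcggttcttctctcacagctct
Spp1: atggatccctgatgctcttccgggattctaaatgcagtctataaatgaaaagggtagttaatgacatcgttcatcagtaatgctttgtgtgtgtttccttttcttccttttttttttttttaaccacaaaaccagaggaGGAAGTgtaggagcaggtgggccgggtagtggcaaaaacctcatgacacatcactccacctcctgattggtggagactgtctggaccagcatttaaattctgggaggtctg
Of the 10 genes, 7 had a start in the RefSeq table, and these 3 held GGAAGT on either strand, as did 19.7% of all 32851 windows of this length. The longer form GAGGAAGT, which contains GGAAGT, was present before C1qc and Spp1 and in 2.44% of all windows. A match of letters is a description and does not show that a factor binds there.

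None of the chains passed the test. C1qa had a mean of 581 in the authors' deposited table, where its log2 fold change was -0.07 ± 0.09 (SE, adjusted p = 0.837). C1qb had a mean of 454 in the authors' deposited table, where its log2 fold change was -0.15 ± 0.09 (SE, adjusted p = 0.576). C1qc had a mean of 356 in the authors' deposited table, where its log2 fold change was -0.04 ± 0.10 (SE, adjusted p = 0.929). All 3 values were negative, and each interval of the unshrunken fold included 1: 0.807 to 1.10 for C1qa, 0.743 to 1.03 for C1qb and 0.801 to 1.16 for C1qc. By the second solution these intervals were wider, at 0.473 to 1.38 for C1qa, 0.392 to 1.08 for C1qb and 0.590 to 1.43 for C1qc, and the fold of C1qb was 0.651 in place of 0.873. Per kilobase of transcript C1qa was 1.34 times as high as C1qb and 1.89 times as high as C1qc, and C1qa stood above 84.7% of tested genes on that scale. Trem2, by contrast, stood at the percentile 34.7 and Cx3cr1 at 31.7.

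Spp1 (chromosome 5, 104435111 to 104441053) codes for osteopontin, a secreted ligand of integrins and CD44 made by bone cells and by activated macrophages. With a mean of 5329 normalized counts in the authors' deposited table it was the most abundant of the 10 genes, and per kilobase it was 6.33 times as high as C1qa. Spp1 stood at a log2 fold change of -0.012 ± 0.10 by the authors' deposited table (SE, adjusted p = 0.982). The unshrunken fold was 0.986, with an interval of 0.772 to 1.26. That interval is wide for so abundant a transcript: 98.5% of the 607 tested genes with a mean within 1.5-fold of that of Spp1 had a smaller error. With the shrinkage undone the error of Spp1 was 0.18 or 0.25 on the log2 scale, depending on which of the 2 solutions holds, against a median of 0.079 for genes of like mean by the first solution.

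**Figure D3:**
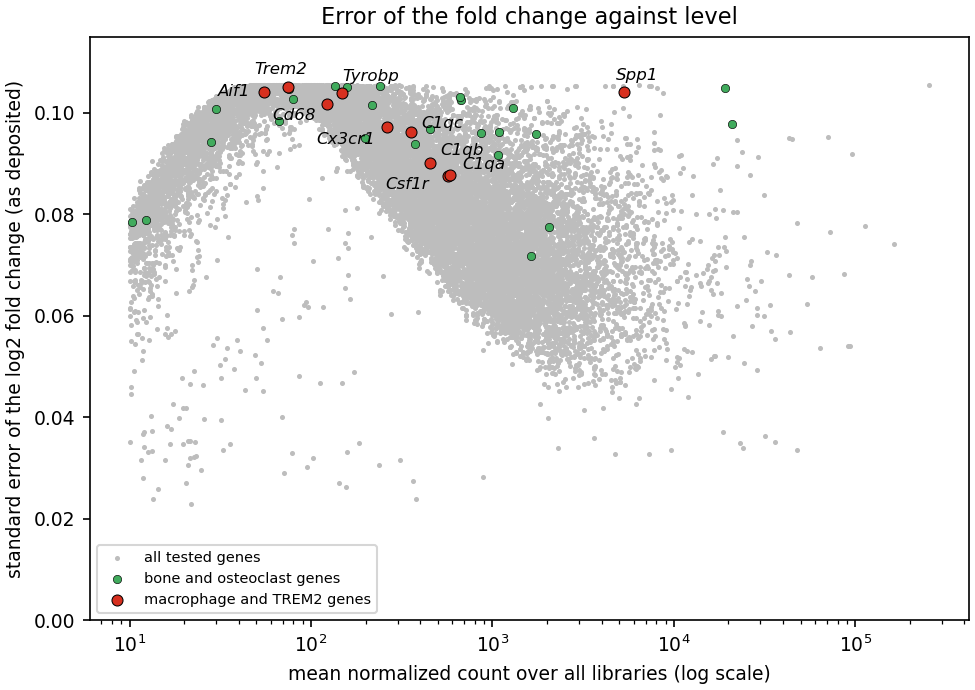
Mean normalized count over all libraries (horizontal axis, log scale) against the deposited standard error of the log2 fold change, for all tested genes (grey), bone and osteoclast genes (green) and the macrophage and TREM2 genes (red). Errors reach a ceiling of 0.105 at means near 71 and mostly decline above it, and because of the shrinkage an error under the ceiling can belong to a precise or to a very variable gene; Spp1 lies near the ceiling at a mean of 5329.

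Errors this large for the level were seen in several lists. Among them were genes of bone and of osteoclasts, the bone-resorbing cells of the macrophage lineage, and MHC class II genes. Of 27 bone and osteoclast genes listed, 11 had a mean above 500, and 9 of these 11 had a larger error than 90% of genes of like mean, as did 9.46% of the 7377 tested genes with such a mean. In the macrophage and microglia lists together it was 6 of 26 genes with a mean above 500. By list it was 2 of 5 macrophage markers, 3 of 6 homeostatic microglia genes and 2 of 16 disease-associated microglia genes, with Lyz2 in 2 of these lists. In the dendritic cell list it was 4 of 4, all MHC class II genes. It was 2 of 3 in the CSF1R list and 2 of 8 in the list of osteopontin receptors and proteases. For signalling below TREM2 it was 0 of 6, for C1q partners 0 of 5 and for phagocytosis 0 of 9. It was 0 of 1 in each of the neutrophil, monocyte and mast cell lists and 0 of 2 in the B and plasma cell list. Lyz2, the lysozyme of macrophages and neutrophils, with a mean of 4618 close to that of Spp1, had a larger error than 99.7% of genes of like mean. Among the bone and osteoclast genes, picked like Lyz2 after their values were seen, were Col1a1, the main collagen of bone (mean 19146), Acp5, the tartrate-resistant acid phosphatase of osteoclasts (mean 1301), and Bglap, which codes for osteocalcin (mean 669), each with a larger error than at least 98.5% of genes of like mean. Between Apoe4 and Apoe3, 0 of 14 bone genes and 0 of 11 osteoclast genes passed in either direction, with medians of 0.019 and -0.04 and with 1 gene of each list at an unadjusted p under 0.05. Per the authors' deposited table, Bglap was at -0.21 (adjusted p = 0.472), Phex at 0.18 (adjusted p = 0.554) and Alpl at 0.14 (adjusted p = 0.625). By the authors' deposited table, among osteoclast genes Car2 was at -0.18 (adjusted p = 0.313), Mmp9 at -0.18 (adjusted p = 0.518) and Ctsk at -0.12 (adjusted p = 0.718). Whether Spp1 here comes from bone or from macrophages was not tested.

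Within the 10 genes the fold change went with the length of the transcript. The shortest transcripts, those of Tyrobp (597 bases) and Aif1 (875 bases), had the lowest values, and the longest, those of Cx3cr1 (4493 bases) and Csf1r (4701 bases), had the only positive ones. The rank correlation of length with the log2 fold change was 0.857 over these 10 genes, which share the same libraries and are not independent. Over 15503 tested genes with a known length the rank correlation of length with the Wald statistic was 0.446, and over 30 other macrophage markers that of length with the log2 fold change was 0.478. With the trend on length subtracted, 5 of the 10 genes were negative, their median was -0.0054, and Aif1 had an unadjusted p of 0.244. Tyrobp then stood at -0.08 and Aif1 at -0.12 on the log2 scale. The part of transcript length in these values was not tested further.

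**Figure D4:**
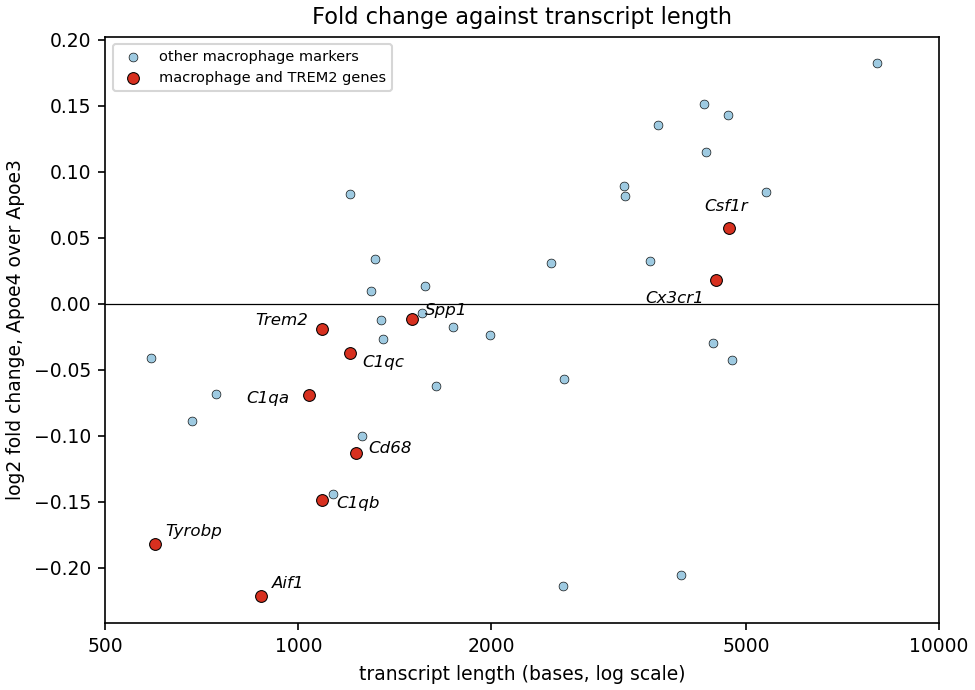
Transcript length in bases (horizontal axis, log scale) against the deposited log2 fold change of Apoe4 over Apoe3 for the macrophage and TREM2 genes (red) and for 30 other macrophage markers (blue). Tyrobp at 597 bases and Aif1 at 875 bases lie lowest among the red points, and Csf1r at 4701 bases lies highest.

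Genes that act with the receptor gave no call. Of 20 tested genes of signalling below TREM2, 0 passed in either direction (0 at an unadjusted p under 0.05), with a median log2 fold change of 0.05. From the authors' deposited table, Card9, an adaptor of myeloid cells, was at -0.18 (adjusted p = 0.487), Blnk, an adaptor phosphorylated by SYK, at -0.13 (adjusted p = 0.567) and Vav1, an exchange factor of blood cells, at 0.16 (adjusted p = 0.587). The list of TREM2 ligands, of the proteases that shed it and of its relatives also holds Cd33, Ms4a6d and Tgfbr2. Of its 11 tested genes, 0 passed and 1 had an unadjusted p under 0.05, with a median of 0.0089. The authors' deposited table puts that gene, Adam17, a protease that sheds TREM2, at 0.16 (adjusted p = 0.419), and Adam10, the other such protease, was at 0.13 (adjusted p = 0.487). The mouse Apoe row, on which the reads of the human alleles may not have been counted, was at -0.16 with a mean of 249 (adjusted p = 0.579) in the authors' deposited table. It is not read here as a measure of the alleles.

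The partners of the other receptors and of C1q likewise gave no call. Of 11 tested genes in the CSF1R list, 0 passed and 1 had an unadjusted p under 0.05, with a median of 0.015. This list holds CSF1R ligands, macrophage transcription factors and the receptor subunits Csf2ra and Csf2rb. Per the authors' deposited table, Maf, a transcription factor of tissue macrophages, was at 0.20 (adjusted p = 0.383), Il34, a CSF1R ligand, at -0.19 (adjusted p = 0.536) and Spi1 at -0.18 (adjusted p = 0.556). Cx3cl1, which codes for fractalkine, had a mean of 987 and stood at 0.02 (adjusted p = 0.930) per the authors' deposited table. In its list of chemokine partners 0 of 5 tested genes passed (0 at an unadjusted p under 0.05). Of 12 C1q partners, 0 passed and 3 had an unadjusted p under 0.05, with a median of 0.027. By the authors' deposited table, these were C4b, cleaved by the active C1 complex, at 0.25 (adjusted p = 0.290), C1qbp, a mitochondrial protein that can bind C1q, at -0.17 (adjusted p = 0.377) and C1qtnf1, a C1q-like secreted protein, at 0.18 (adjusted p = 0.426). Of 12 tested genes in the list of osteopontin receptors and proteases, 0 passed (0 at an unadjusted p under 0.05), with a median of 0.08. Thbs1 and Tgfb1, which are neither receptors nor proteases, are also in this list. Thbs1 was at 0.15 (adjusted p = 0.490), Itga8 at 0.18 and Mmp9 at -0.18 (adjusted p = 0.518 for both) in the authors' deposited table.

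Wider lists of macrophage and microglia genes gave 0 calls as well. Several of their genes had means far above those of Adgre1 (162) and Itgam (117) in the authors' deposited table. Among these were Fth1 (16627), Ctsb (13654) and Sparc (11226). Which cells of the tissue the RNA of such genes came from was not tested. Of 34 other macrophage markers, 30 were tested, 0 passed and 2 had an unadjusted p under 0.05; 16 were negative and 14 positive, with a median of -0.01. From the authors' deposited table, Fcgr1, a high-affinity receptor for IgG, was at -0.21 (adjusted p = 0.464), F13a1, a transglutaminase, at -0.21 (adjusted p = 0.476) and Stab1, a scavenger receptor, at 0.18 (adjusted p = 0.495). Of 13 tested homeostatic microglia genes, 0 passed and 3 had an unadjusted p under 0.05, with a median of 0.04. Per the authors' deposited table, Cst3, the protease inhibitor cystatin C, was at -0.26 (adjusted p = 0.174), Olfml3 at -0.21 (adjusted p = 0.438) and Tgfbr1, a receptor of TGF-beta, at 0.16 (adjusted p = 0.439). P2ry12, a purine receptor that marks resting microglia, had a mean of 46.3 in the authors' deposited table. Of 26 tested genes of the disease-associated microglia list, whose induction in the mouse brain depends partly on TREM2, 0 passed and 4 had an unadjusted p under 0.05, with a median of -0.022. By the authors' deposited table, Fth1, the ferritin heavy chain, was at -0.18 (adjusted p = 0.309), Igf1 at 0.25 (adjusted p = 0.351) and Cd52 at -0.24 (adjusted p = 0.409). Of 16 tested phagocytosis genes, 0 passed and 2 had an unadjusted p under 0.05, with a median of 0.06. From the authors' deposited table, Mfge8, a bridge between dying cells and phagocytes, was at 0.21 (adjusted p = 0.155), Rac2, a GTPase of blood cells, at -0.27 (adjusted p = 0.303) and Megf10, an engulfment receptor, at 0.19 (adjusted p = 0.493).

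**Figure D5:**
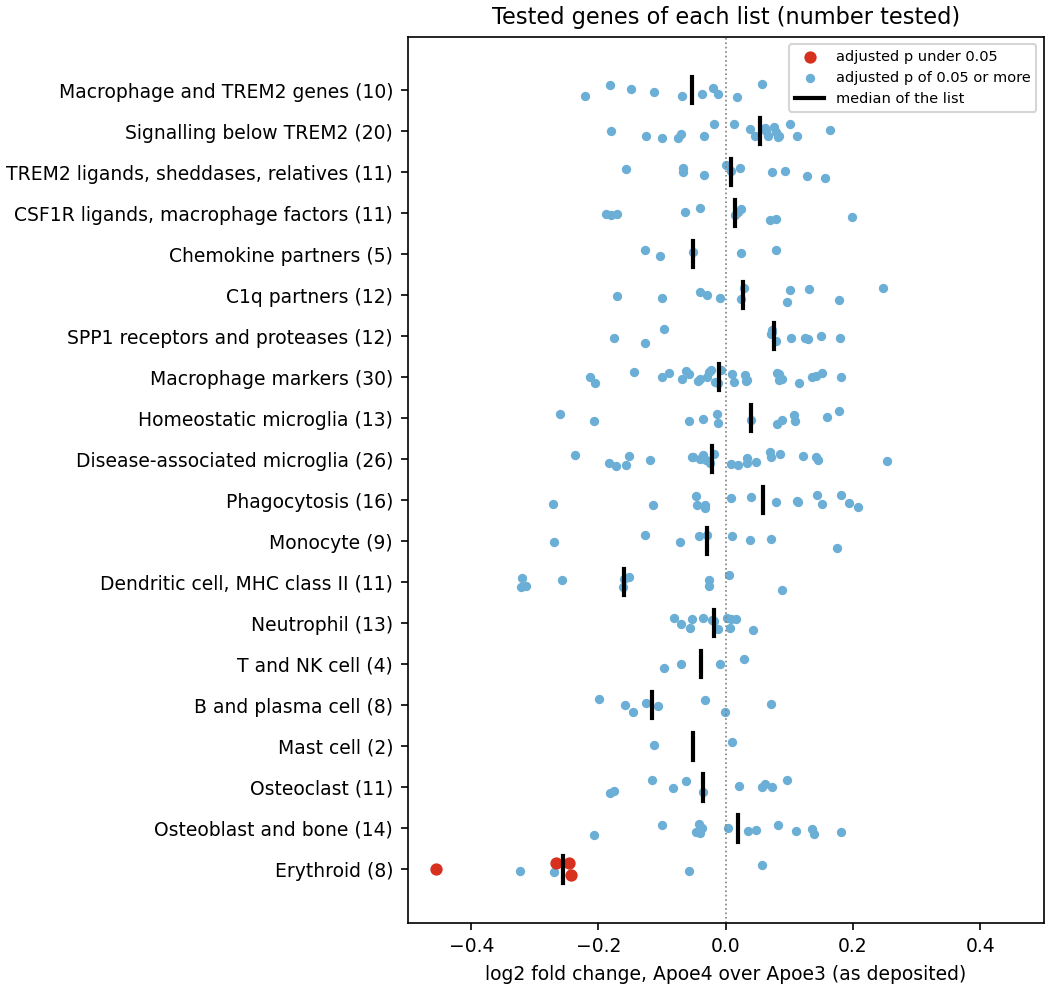
Deposited log2 fold change (Apoe4 over Apoe3) of each tested gene (points) in 20 lists (rows; the lists of gland, supporting cell, mature neuron and ensheathing glia genes are not drawn), with the list's median as a black bar and genes at an adjusted p under 0.05 in red. The red points in these rows are 4 erythroid genes, all lower in Apoe4.

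Markers of blood cells that could lie in the same tissue were set beside these values. Erythroid genes were the exception among the lists of blood and macrophage genes: 4 of 8 tested were lower in Apoe4 and 0 higher, with a median of -0.26. The haemoglobin genes Hba-a1, Hba-a2, Hbb-bs and Hbb-bt are also in this list. Each had a mean of 0 in the authors' deposited table and was not tested. Per the authors' deposited table, Alas2, an enzyme of haem synthesis, fell by 0.46 in log2 units (adjusted p = 0.00337), and Slc4a1 and Car1 were also lower. With the trend on length subtracted, Car1 no longer passed (adjusted p = 0.197). Whether blood content has a part in the values of the macrophage genes was not tested.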

How the data were processed

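Per the submitters' processing notes, reads were processed with STAR, featureCounts and DESeq2 on GRCm38; the sources used here give no versions, settings or annotation. RNA libraries were sequenced as paired reads of 150 bases, per the labels' protocols. The authors deposited 1 row per gene, with no value per library. Its mean is a signal, read counts divided by size factors and averaged over 10 libraries by the authors; about 17392666 normalized counts in sum limit the precision of rare transcripts. The deposited log2 fold changes and log2 standard errors are shrunken, the deposited score is the Wald statistic (fold over error, within 1.3e-13), and the deposited p-value is its two-sided normal p. Adjusted p-values equal Benjamini-Hochberg values over 16050 genes, after the authors' mark of 8314 genes as low (means up to 9.99); 57 others had no p-value.

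The table names no direction. The lowest levels of the mean shared by many genes, taken as those of genes with 1 read in 1 library, were read up to a cap of 10. Because of that cap, the number of levels is no check. Of the 10 levels, 6 had positive and 4 negative folds, which fits 6 Apoe4 and 4 Apoe3 libraries only if positive means higher in Apoe4.

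The error of a fold shrunken by a normal prior peaks where data and prior weigh equally, so the ratio of an error to the ceiling of 0.105 gives the shrinkage, up to 2 solutions. The solution with more information is printed unless stated; nothing in the table shows which solution holds for a single gene. Lengths were those of the longest coding transcript in GENCODE vM21, found for 96.6% of tested genes, and a lowess curve of the Wald statistic on log2 length (fraction 0.3, statsmodels 0.14.6, Python 3.11.15) was subtracted as an alternative. Positions are RefSeq's for GRCm38.p6. The genes and the 23 lists were chosen with earlier results of these data known, so lists are described by counts and medians without a test. Named genes were the 10 genes, in each list those past the threshold and otherwise up to 3 with the smallest p, and the sex-linked genes and Apoe; some genes this rule names are not reported here; others are named as chosen after their values were seen or as markers of a cell type. A test on counts, planned in case values per library were at hand, could not be run.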

Additional observations from a re-analysis of the deposited data

How the results depend on the processing

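None of the 10 genes passed under any of 10 alternatives, in 98 comparisons of a gene with an alternative (8 genes where a mean of at least 100 was required). Several alternatives could not have added a call: Bonferroni adjustment, both tests against a fold of 1.2 and both ways of undoing the shrinkage. Aif1 and Trem2 are below that mean, and under the other 9 alternatives the adjusted p of Aif1 was 0.433 or more. The sign changed in 5 comparisons, each with the length trend removed: Trem2 then stood at 0.078, Cx3cr1 at -0.025, C1qa at 0.013, C1qc at 0.048 and Spp1 at 0.065 on the log2 scale. The count of all genes past the threshold, 125, was 51 with Bonferroni adjustment, 20 with the deposited folds tested against a fold of 1.2, and 26 with the unshrunken folds tested against 1.2, an alternative chosen after seeing the data; these ask for more than the main test. The second solution for the shrinkage, also added after seeing the data, gave wider intervals, such as 0.713 to 1.32 for the fold of Trem2, with the same p-values by construction. No paired analysis was possible because the table holds no value per library, and for the same reason leaving out each replicate was not run.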

Other observations

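The MHC class II genes of antigen-presenting cells, held here in the dendritic cell list, had the smallest p-values among tested genes of the other immune cell lists. In the authors' deposited table Cd74, the invariant chain, was at -0.31 (adjusted p = 0.0586), H2-Eb1 at -0.32 (adjusted p = 0.0692) and H2-Aa at -0.32 (adjusted p = 0.0829). None of the 11 tested genes of the dendritic cell list passed in either direction by the authors' DESeq2 test, and 9 were negative, with a median of -0.16. The 4 with an unadjusted p under 0.05 were Cd74, H2-Eb1, H2-Aa and H2-Ab1, which are not particular to dendritic cells. Cd74 had an adjusted p of 0.338 once the trend on transcript length was subtracted.

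Other white blood cells gave 0 calls by the same test. Of 8 tested B and plasma cell genes, 7 were negative with a median of -0.12 and 2 had an unadjusted p under 0.05. The authors' deposited table puts Cd79a, a part of the B cell receptor, at -0.20 (adjusted p = 0.392). Of 9 tested monocyte genes, 1 had an unadjusted p under 0.05, Plac8, which the authors' deposited table puts at -0.27 (adjusted p = 0.307). Of 13 tested neutrophil genes, 0 had an unadjusted p under 0.05, with a median of -0.018. T and NK cell genes were near the limit of detection, with 9 of 13 marked low by the authors, as were mast cell genes, with 7 of 9. Outside blood cells, 2 of 8 gland genes, Bpifb4 and Bpifb1, were higher and 1 of 11 supporting cell genes, Cbr2, was lower in Apoe4, while 0 of 10 mature neuron genes and 0 of 9 ensheathing glia genes passed, each of these lists having 1 gene at an unadjusted p under 0.05. With the length trend subtracted, Cbr2 had an adjusted p of 0.345.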
